A study of Homo sapiens with 8 samples.

Results

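Genes that EWSR1-FLI1 is known to hold down form a mesenchymal, contractile and TGF-beta related set of 36 genes. This set was read out here in A673 cells with FEZF1 partly lowered and in their untreated partners. The 36 genes were taken by name out of 34792 genes for which reads could be summed. Of the 36, 33 were among the 15993 genes that passed a filter on low counts and were tested. A673 is a line established from an Ewing sarcoma, with the EWSR1-FLI1 fusion. All 8 libraries came from A673/TR/shFEZF1 cells, which carry a doxycycline-inducible shRNA against the transcription factor FEZF1 and were grown with blasticidin, puromycin and zeocin. Untreated libraries (n = 4) were made from 4 origins (polyclonal cells, clone 3, clone 5 and clone 6), and doxycycline libraries (n = 4) from the same origins after 1 µg/mL doxycycline for 72 h. The untreated cells carried the same construct. Each clone is a single line, each origin gave 1 library per condition, and no doxycycline-treated culture without the shRNA was analysed here, so the drug and the shRNA cannot be told apart.

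In Ewing sarcoma, EWSR1-FLI1 switches on some genes through GGAA repeats and keeps many others low, partly through transcriptional repressors such as NKX2-2 and NR0B1. Both of these genes are themselves induced by the fusion. The repressed genes include TGFBR2, the type II TGF-beta receptor, and the secreted proteins IGFBP3 and DKK1. They also include genes of the actin cytoskeleton, of adhesion and of the extracellular matrix, many of which are known to be induced by SRF with its MRTF cofactors, by YAP and TAZ with TEAD factors, or by TGF-beta signalling through SMADs. Cells with low fusion activity are known to take on a more mesenchymal, migratory state. The EWSR1-FLI1 level itself was not measured here: the transcripts of FLI1, which supplies the DNA-binding end of the fusion, could not be matched to a symbol, and the fusion was not lowered by design. That the set is held down by EWSR1-FLI1 is therefore a label from background knowledge, which these libraries do not check.

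The libraries held between 26719886 and 42422421 assigned reads. FEZF1, the target of the shRNA, stood at 96.4, 70.5, 107 and 74.4 CPM (library counts scaled by TMM to CPM) in the untreated polyclonal population and clones 3, 5 and 6, and at 60.6, 43.0, 60.8 and 36.4 CPM with doxycycline. It was lower in each of the 4 pairs (log2 fold change -0.81, SE 0.0726, adjusted p = 0.00594). EWSR1, of which 53.3% of the reads were matched, stood at 156 ± 11.7 and 153 ± 14.6 CPM (SD, n = 4 each). All 8 Ewing sarcoma markers on the list used were detected and tested, the 3 leukocyte markers together stayed at or below 0.399 CPM in each library, and CD3E among them was at 0.

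Promoter windows (250 bases before and 50 after an annotated start, RefSeq, GRCh38.p14) were given for 32 of the 36 members, 49 windows in all, and are shown for 6 members: 4 that passed the test with doxycycline (TGFBR2, NT5E, FN1 and S100A10) and a pair that differed widely between origins (CD44 and THBS1). They are written 5′ to 3′ in the direction of the gene, and capitals mark a match, on either strand, to a motif searched.
The windows lie at chr3:30606351-30606650, plus strand; chr6:85449833-85450132, plus strand; chr2:215436019-215436318, minus strand; chr1:151993810-151994109, minus strand; chr11:35138921-35139220, plus strand; and chr15:39580829-39581128, plus strand, in this order of genes.
TGFBR2: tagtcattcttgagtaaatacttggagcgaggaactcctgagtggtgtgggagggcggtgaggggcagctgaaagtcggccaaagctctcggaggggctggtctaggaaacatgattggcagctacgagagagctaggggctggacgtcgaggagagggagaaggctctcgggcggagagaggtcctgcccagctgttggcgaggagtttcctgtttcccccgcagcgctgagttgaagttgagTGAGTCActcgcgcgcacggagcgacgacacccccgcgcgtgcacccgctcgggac
NT5E: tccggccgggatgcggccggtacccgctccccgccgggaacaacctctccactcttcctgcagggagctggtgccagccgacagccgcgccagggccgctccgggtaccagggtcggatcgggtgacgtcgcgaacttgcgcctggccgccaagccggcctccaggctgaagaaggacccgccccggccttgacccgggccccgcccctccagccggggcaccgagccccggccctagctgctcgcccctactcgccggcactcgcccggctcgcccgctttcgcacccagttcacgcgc
FN1: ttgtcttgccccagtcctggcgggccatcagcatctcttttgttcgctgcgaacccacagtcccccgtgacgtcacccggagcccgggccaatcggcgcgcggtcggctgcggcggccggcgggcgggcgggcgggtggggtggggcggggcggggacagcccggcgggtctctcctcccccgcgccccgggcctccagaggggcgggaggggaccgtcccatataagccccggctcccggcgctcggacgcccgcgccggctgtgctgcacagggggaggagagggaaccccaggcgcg
S100A10: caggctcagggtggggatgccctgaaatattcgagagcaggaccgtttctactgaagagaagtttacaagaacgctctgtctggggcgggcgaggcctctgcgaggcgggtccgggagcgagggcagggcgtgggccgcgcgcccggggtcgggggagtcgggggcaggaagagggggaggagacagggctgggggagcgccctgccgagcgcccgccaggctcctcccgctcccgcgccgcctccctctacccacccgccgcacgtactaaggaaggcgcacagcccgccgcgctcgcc
CD44: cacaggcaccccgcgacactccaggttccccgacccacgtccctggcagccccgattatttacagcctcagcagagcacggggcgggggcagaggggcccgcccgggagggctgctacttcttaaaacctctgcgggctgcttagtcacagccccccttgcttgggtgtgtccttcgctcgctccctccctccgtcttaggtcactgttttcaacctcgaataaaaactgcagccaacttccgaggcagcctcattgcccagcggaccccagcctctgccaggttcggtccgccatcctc
THBS1: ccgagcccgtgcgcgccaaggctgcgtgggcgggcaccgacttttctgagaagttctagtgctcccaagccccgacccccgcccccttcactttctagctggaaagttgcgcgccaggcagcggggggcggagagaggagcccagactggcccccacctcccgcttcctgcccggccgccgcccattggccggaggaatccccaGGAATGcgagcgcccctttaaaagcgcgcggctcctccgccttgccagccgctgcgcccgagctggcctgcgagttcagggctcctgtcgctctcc

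The capitals in TGFBR2 spell a match to TGANTCA, the AP-1 element, and those in THBS1 a match to CATTCC, the TEAD element, on the opposite strand. The windows of NT5E, FN1, S100A10 and CD44 held none of the motifs searched. TGANTCA was found in a window of 7 members (CALD1, TGFBR2, ANXA2, CAPG, CD59, EMP1 and PLAUR), which was 14.3% of the member windows against 7.71% of all 35116 windows. CATTCC was found for 5 members (AXL, CALD1, DKK1, ACTA2 and THBS1), 12.2% of member windows against 14% of all. CCGGAA, an ETS core, was found for 6 members (AXL, IGFBP3, DKK1, SPRY1, S100A6 and TPM1), 12.2% against 17.2%. The motifs GGAAGGAA, CCGGAA and CATTCC can overlap through a shared GGAA, read on either strand. The repeat GGAAGGAA was found for TIMP1, TNC and CAPG, 8.16% against 3.67%, and TATAAA for CALD1, ANXA1, ANXA2 and DKK1, 8.16% against 11.5%. The CArG box, the SRF element, was found in 0 member windows and in 1.29% of all windows. Both strands were searched, and these matches are descriptions of letters, not of binding.

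The question asked of these genes was whether lowering FEZF1 moved them. With origin as a block, 7 of the 33 tested members passed: TGFBR2, AXL, FN1, NT5E, TAGLN and CALD1 fell and S100A10 rose. These 7 were 21.2% of the tested members, and 7.63% of all genes tested passed; 6 members (18.2%) fell against a background of 3.91%, and 1 (3.03%) rose against 3.73%. The median log2 fold change of the 33 members was -0.0099, and that of all genes tested was 0.0042. Of the members, 18 had a fitted value below 0 and 15 above. In the plot of fold changes by pair, AXL lies at the lower end and S100A10 at the upper end. The other called members lie among members that did not pass. Each called member has its 4 pairs on the same side of 0, as do some that did not pass.

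The calls rest on comparing each culture with its own untreated partner. Without the block no member passed by edgeR or by DESeq2, beside 0.00625% and 1.45% of all genes. The count of members at an unadjusted p under 0.05 was also 0 by either tool, beside 7.22% of all genes by edgeR and 8.27% by DESeq2. The smallest adjusted p of a member without the block was that of FN1, 0.821 by edgeR and 0.623 by DESeq2. Leaving out 1 origin left fewer calls: AXL, FN1, NT5E and S100A10 without the polyclonal pair, FN1 alone without clone 3 or without clone 6, and NT5E alone without clone 5. Calls over all genes fell in the same fits, from 1221 with all origins. They were 699 without the polyclonal pair, 461 without clone 3, 175 without clone 5 and 230 without clone 6.

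**Figure D1:**
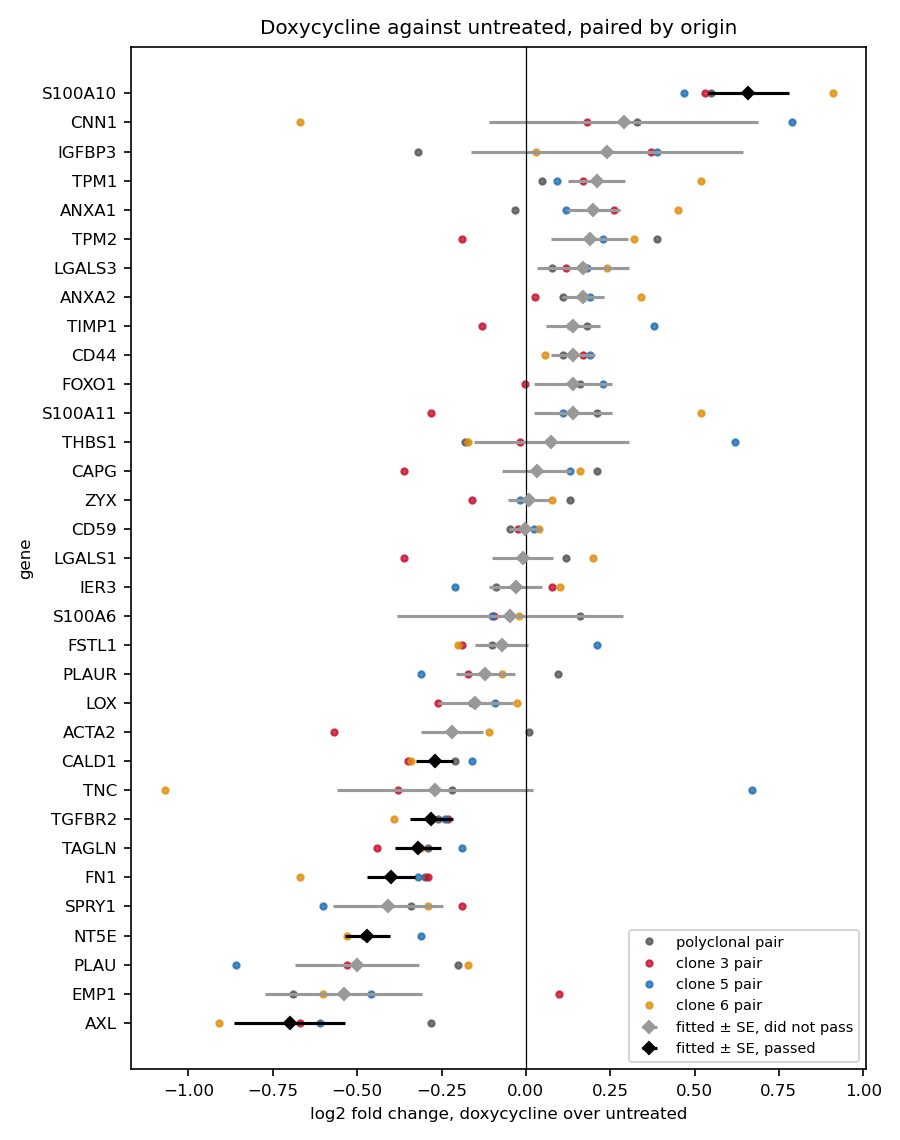
Log2 fold change, doxycycline over untreated, for the 33 tested members. Diamonds are fitted values with standard errors (black where the test was passed) and dots are the 4 pairs by origin (pseudocount 0.5 CPM); S100A10 lies at the top with 0.66 and AXL at the bottom with -0.70.

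Members that signal to the cell surface or carry signals inward gave 2 calls of 7 tested, both lower. TGFBR2, on chromosome 3 (30606356 to 30694142), is the receptor that binds TGF-beta and recruits TGFBR1. It stood at 51.2, 51.1, 32.8 and 43.5 CPM in the untreated polyclonal population and clones 3, 5 and 6, and at 42.6, 43.6, 27.8 and 33.0 CPM with doxycycline. Each culture with doxycycline lay below its own partner, while the ranges of the groups overlapped. Clone 5 was the lowest in both groups. The means were 44.6 ± 8.68 and 36.7 ± 7.63 CPM, and TGFBR2 fell to 0.822 of the untreated level (log2 fold change -0.28, SE 0.0633, adjusted p = 0.0402). The matched transcripts held 58.3% of the reads that the authors' mean for TGFBR2 implies, so the level is a part of the gene's reads.

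AXL, a receptor tyrosine kinase for GAS6 that is high in invasive mesenchymal cells, had the steepest fall. It lies on chromosome 19 (41219223 to 41261766). AXL stood at 5.26, 18.8, 2.65 and 3.06 CPM untreated (polyclonal, clone 3, clone 5, clone 6) and at 4.24, 11.6, 1.56 and 1.39 CPM with doxycycline. Clone 3 was high in both conditions, and the log2 ratio of the pairs ranged from -0.28 in the polyclonal population to -0.91 in clone 6. The fitted log2 fold change was -0.70 (SE 0.164, adjusted p = 0.0442).

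The other signalling members did not pass. IGFBP3, which binds insulin-like growth factors, was near the detection limit at 0.278, 1.01, 0.109 and 0.402 CPM untreated and 0.123, 1.45, 0.299 and 0.421 CPM with doxycycline (log2 fold change 0.24, SE 0.404, adjusted p = 0.777). FOXO1, a transcription factor restrained by AKT, was even across origins: 6.91, 8.06, 7.87 and 6.39 CPM untreated and 7.80, 8.05, 9.29 and 7.11 CPM with doxycycline (log2 fold change 0.14, SE 0.115, adjusted p = 0.508). DKK1, a secreted inhibitor of Wnt signalling, had 0 reads in each of the 8 libraries, and the authors' mean for it was also 0. A count of 0 allows up to 0.0759 CPM in the deepest library and 0.126 CPM in the shallowest.

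SPRY1, an inhibitor of receptor tyrosine kinase signalling, was lower in 4 of 4 pairs without passing (3.81 ± 0.966 and 2.84 ± 0.511 CPM, log2 fold change -0.41, SE 0.163, adjusted p = 0.172). IER3, an early response gene tied to cell survival, stood at 31.7 ± 11.4 and 31.5 ± 13.4 CPM (log2 fold change -0.030, adjusted p = 0.857). FSTL1, a secreted glycoprotein that binds TGF-beta family ligands, stood at 111 ± 67.6 and 102 ± 55.2 CPM with 49.3% of its reads matched (log2 fold change -0.072, adjusted p = 0.629). The spread of FSTL1 and IER3 came from clone 3, which was highest in both conditions.

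Among the 5 matrix members, FN1 fell and the others did not pass. FN1, fibronectin, which links integrins to the matrix, lies on chromosome 2 (215360865 to 215436068) and was, per length, the second most abundant of the members tested, at 1220.4 TPM on average in untreated libraries after LGALS1 at 2129 TPM. FN1 stood at 6509.7, 7698, 4406 and 6425 CPM untreated (polyclonal, clone 3, clone 5, clone 6) and at 5287, 6275, 3533 and 4043 CPM with doxycycline. The pair of clone 6 dropped most, with a log2 ratio of -0.67, and the other pairs lay between -0.29 and -0.32. The fitted log2 fold change was -0.40 (SE 0.0712, adjusted p = 0.0218), from 6259.6 ± 1366 to 4784 ± 1237 CPM. FN1 lost its call when clone 5 was left out and without the block.

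LOX, which crosslinks collagen and elastin, was lower in 4 of 4 pairs without passing. Its values were 5.34, 25.3, 3.92 and 3.78 CPM untreated and 4.73, 21.0, 3.65 and 3.70 CPM with doxycycline (log2 fold change -0.15, SE 0.111, adjusted p = 0.456). THBS1, thrombospondin 1, an activator of latent TGF-beta, stood at 2.15, 13.1, 0.472 and 1.25 CPM untreated and at 1.84, 13.0, 0.996 and 1.05 CPM with doxycycline. Its fitted log2 fold change was 0.075 (SE 0.23, adjusted p = 0.879), and its sign turned without the block and when clone 5 was left out. TIMP1, an inhibitor of matrix metalloproteinases, stood at 292 ± 30.8 and 323 ± 41.5 CPM (log2 fold change 0.14, SE 0.0802, adjusted p = 0.327). TNC, tenascin C, had 0.599% of its reads matched (4.75 ± 1.64 and 3.99 ± 1.49 CPM, log2 fold change -0.27, adjusted p = 0.62), so these values do not describe the gene as a whole.

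**Figure D2:**
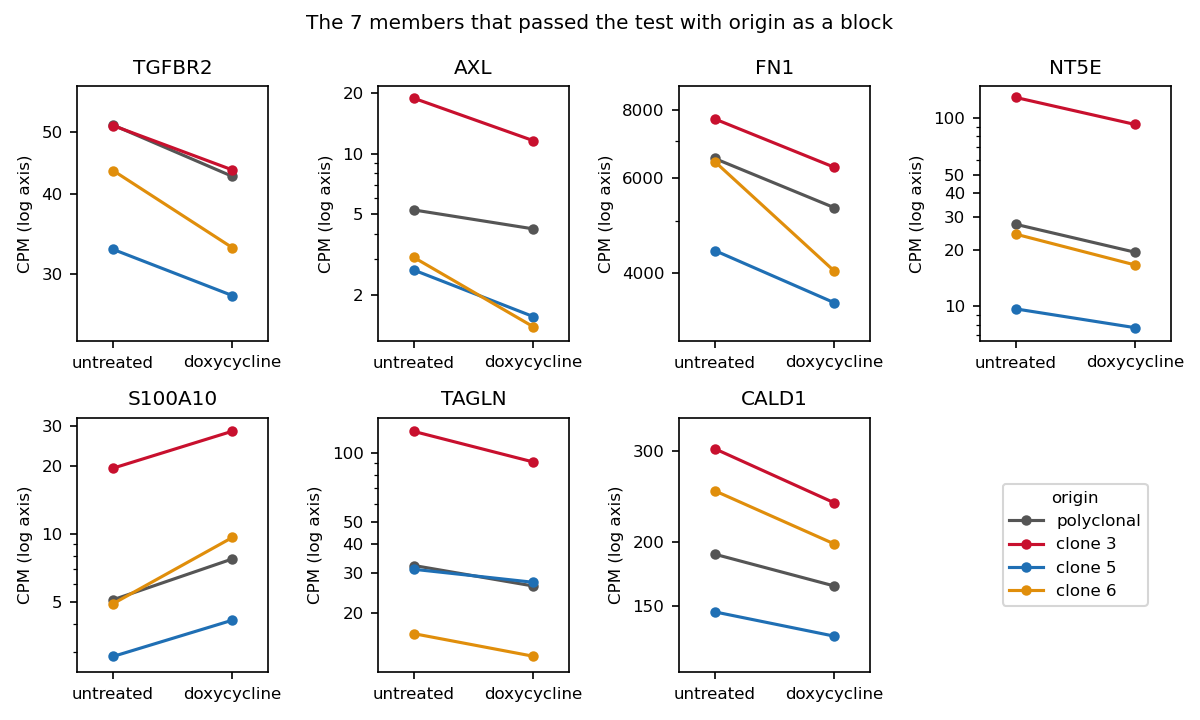
CPM (log axis) of the 7 members that passed with origin as a block, untreated and with doxycycline, 1 line per origin. Each line of S100A10 rises and each line of the other 6 members falls; for NT5E clone 3 runs from 129 to 92.7 CPM and clone 5 from 9.69 to 7.70 CPM.

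Of the 6 members at the cell surface or in pericellular proteolysis, NT5E fell. NT5E (CD73) makes extracellular adenosine from AMP and marks mesenchymal stromal cells, and it lies on chromosome 6 (85450083 to 85495784). Its level was 27.3, 129, 9.69 and 24.2 CPM untreated and 19.4, 92.7, 7.70 and 16.6 CPM with doxycycline (polyclonal, clone 3, clone 5, clone 6). The origins lay up to 13.3-fold apart untreated, yet the log2 ratios of the pairs were close, -0.48, -0.47, -0.31 and -0.53. NT5E had the smallest adjusted p of the members (0.0116, log2 fold change -0.47, SE 0.0666).

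CD44, the hyaluronan receptor, did not pass with doxycycline and had the smallest adjusted p of the members for the difference between origins (4.05e-06). It stood at 17.7, 102, 6.53 and 19.7 CPM untreated and at 19.2, 115, 7.53 and 20.6 CPM with doxycycline. CD44 was higher in 4 of 4 pairs without passing (log2 fold change 0.14, SE 0.0655, adjusted p = 0.247). PLAU, the urokinase protease, was lower in 4 of 4 pairs without passing (6.01 ± 5.62 and 4.27 ± 3.81 CPM, log2 fold change -0.50, SE 0.183, adjusted p = 0.141), with 77.4% of its reads matched. PLAUR, its receptor, stood at 23.3 ± 5.42 and 21.5 ± 4.94 CPM (log2 fold change -0.12, adjusted p = 0.466). CD59, which blocks the complement membrane attack complex, had the narrowest range of untreated origins (1.14-fold) and stood at 258 ± 14.4 and 258 ± 19.9 CPM (log2 fold change -0.0020, SE 0.0472, adjusted p = 0.986). EMP1, an epithelial membrane protein, had a log2 fold change of -0.54 (SE 0.233, adjusted p = 0.201) with 16.6% of its reads matched.

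The annexins, S100 proteins and galectins held the single member that rose. S100A10, which forms a tetramer with annexin A2 at the membrane and binds plasminogen, lies on chromosome 1 (151982915 to 151993859). It stood at 5.11, 19.5, 2.87 and 4.91 CPM untreated and at 7.74, 28.4, 4.15 and 9.63 CPM with doxycycline. Each culture rose above its own partner, by log2 ratios of 0.55, 0.53, 0.47 and 0.91, while the groups overlapped. Clone 3 was the highest and clone 5 the lowest in both. The fitted log2 fold change was 0.66 (SE 0.119, adjusted p = 0.0217), a rise to 1.58 times the untreated level.

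ANXA2, the partner of S100A10, was higher in 4 of 4 pairs without passing (779 ± 148 and 875 ± 159 CPM, log2 fold change 0.17, SE 0.062, adjusted p = 0.147), with 76.3% of its reads matched. ANXA1, an annexin with anti-inflammatory action, stood at 412 ± 55.5 and 477 ± 86.6 CPM (log2 fold change 0.20, adjusted p = 0.168). LGALS3, galectin 3, was also higher in 4 of 4 pairs without passing (4.67 ± 2.25 and 5.27 ± 2.54 CPM, log2 fold change 0.17, adjusted p = 0.493). The remaining members of this group showed no common direction. S100A11, a calcium-binding protein, stood at 73.5 ± 16.2 and 80.4 ± 12.6 CPM (log2 fold change 0.14, adjusted p = 0.526). LGALS1, galectin 1, stood at 343, 738, 96.2 and 746 CPM untreated and at 373, 575, 95.7 and 859 CPM with doxycycline (log2 fold change -0.0099, adjusted p = 0.964). S100A6 was barely detected at 0.371 ± 0.258 and 0.377 ± 0.318 CPM (log2 fold change -0.047, SE 0.335, adjusted p = 0.952). Reads of ANXA2 and ACTA2 are shared with near-identical copies in the genome or with sister genes and were split by the authors' quantification, so these sums are less certain.

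Contractile and filament genes gave 2 calls of 8 tested, both lower. TAGLN (SM22), an actin-binding protein of smooth muscle and a standard SRF target, lies on chromosome 11 (117199294 to 117207465). It stood at 32.3, 124, 31.1 and 16.3 CPM untreated and at 26.3, 91.3, 27.3 and 13.0 CPM with doxycycline. TAGLN was lower in each pair, by log2 ratios between -0.19 and -0.44 (fitted -0.32, SE 0.0674, adjusted p = 0.0344). CALD1, caldesmon, which restrains actomyosin, lies on chromosome 7 (134711499 to 134970729) and stood at 189, 303, 146 and 251 CPM untreated and at 164, 238, 131 and 198 CPM with doxycycline. Its order of origins was the same in both conditions, clone 3 above clone 6, the polyclonal population and clone 5, and the log2 fold change was -0.27 (SE 0.0548, adjusted p = 0.0314).

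The other contractile members did not follow TAGLN and CALD1 past the test. ACTA2, smooth muscle alpha-actin, stood at 327 ± 202 and 266 ± 116 CPM and was lower in 3 of 4 pairs (log2 fold change -0.22, SE 0.0917, adjusted p = 0.182). TPM1, a tropomyosin that stabilises actin filaments, was higher in 4 of 4 pairs without passing (54.4 ± 29.0 and 62.3 ± 31.8 CPM, log2 fold change 0.21, adjusted p = 0.186). TPM2, another tropomyosin, stood at 16.5 ± 5.01 and 18.4 ± 2.11 CPM (log2 fold change 0.19, adjusted p = 0.363). CNN1, calponin 1, was low at 0.790 ± 0.45 and 0.928 ± 0.475 CPM (log2 fold change 0.29, SE 0.398, adjusted p = 0.712). ZYX, zyxin of focal adhesions, and CAPG, an actin capping protein, had log2 fold changes of 0.0079 and 0.032 (adjusted p = 0.955 and 0.886). ZYX stood at 208 ± 63.7 and 206 ± 46.1 CPM and CAPG at 52.8 ± 27.2 and 51.6 ± 16.6 CPM. MYL9, the myosin light chain of smooth muscle, had at most 2 estimated reads in any library and was not tested. VIM, vimentin, was not tested either: the transcripts matched to it held 0.00753% of the reads that the authors' mean of 48076 normalised counts implies, so VIM was not analysed here.

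Across the 33 tested members, 9 were lower and 5 higher in 4 of 4 pairs, 42.4% in all, beside 33.3% of all genes tested. No member had untreated and doxycycline libraries that did not overlap, beside 4.94% of all genes. The median span of the untreated origins was 1.21 on the log2 scale over the members and 0.499 over all genes tested. The median size of the doxycycline change was 0.19 and 0.15. Span and change are unlike measures, since the span lies between single libraries and the change is fitted over 4 pairs. By pair, the median log2 ratio of the members was -0.033 in the polyclonal population, -0.17 in clone 3, 0.024 in clone 5 and -0.019 in clone 6, beside -0.0022 to 0.0086 for all genes. Clone 3, with 10 of 33 members higher beside 51.1% of all genes, leaned most towards lower values. The polyclonal population had 16 members higher, clone 5 had 17 and clone 6 had 16, beside 49.6% to 51.4% of all genes. Whether the response differed between origins could not be tested, with 1 library per origin and condition.

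More members passed a test between origins than passed with doxycycline. A test of the origin terms was passed by 26 of the 33 members (78.8%), beside 39.4% of all genes tested, and all 7 members called with doxycycline were among them. FOXO1, SPRY1, TNC, TIMP1, CD59, S100A11 and CNN1 did not pass. Each origin was also set against the mean of the other 3, a comparison added after these values had been seen. Clone 3 had 23 members higher (69.7%, beside 10.5% of all genes) and 1 lower (3.03%, beside 8.47%). Clone 5 had 18 members lower (54.5%, beside 10.4%) and 1 higher (3.03%, beside 8.56%). Clone 6 had 11 lower (33.3%, beside 15.9%) and 4 higher (12.1%, beside 16.9%), and the polyclonal population had 6 lower (18.2%, beside 2.0%) and 2 higher (6.06%, beside 3.28%). Leaving out clone 3 left 17 members with a difference between the other origins, beside 5300 of all genes, against 26 and 6300 with all origins. It also took the polyclonal population from 6 members lower to 0 and clone 6 from 11 lower to 2 and from 4 higher to 10. Without clone 5 the polyclonal population had 14 members lower, and without clone 6 it had 10. The 4 members higher in clone 6 became 2 without the polyclonal population or without clone 5. When an origin was left out, no share over all genes was taken for the single-origin counts. Those shifts are therefore not read as particular to the members. The clones were single lines grown as separate cultures, so a difference between origins covers these lines only, and any difference in handling between them cannot be told apart from the line.

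**Figure D3:**
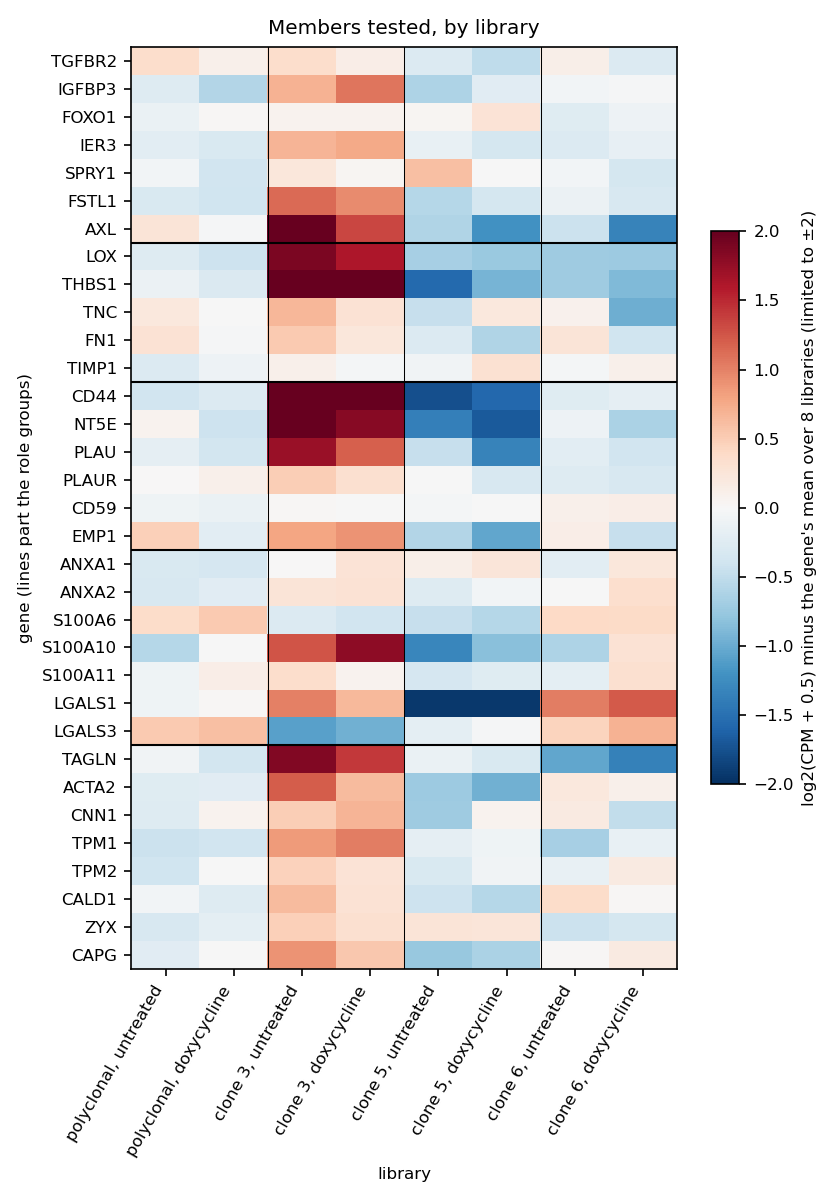
Log2(CPM + 0.5) of the 33 tested members in the 8 libraries, relative to each gene's mean (red above, blue below, limited to ±2). Both libraries of clone 3 are red for most genes and both of clone 5 blue for many, while LGALS3 is blue in clone 3.

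The members higher in clone 3 came from all role groups. THBS1 had the widest difference from the other origins (log2 3.45, SE 0.226, adjusted p = 0.000105), followed by CD44 (2.98, SE 0.0658, adjusted p = 1.89e-06) and NT5E (2.79, SE 0.0672, adjusted p = 1.89e-06). These 3 genes share a place at the cell surface or in the matrix around it. LOX (2.48), AXL (2.44), IGFBP3 (2.22), TAGLN (2.21), PLAU (2.14) and S100A10 (2.14) were also over 2 log2 units higher. IGFBP3 rests on few reads, and its SE was 0.392. EMP1 (1.44), FSTL1 (1.38), TPM1 (1.26), ACTA2 (1.24), LGALS1 (1.12), CAPG (0.98) and IER3 (0.98) were higher by less, and CALD1, PLAUR, ZYX, TPM2, FN1, ANXA2 and TGFBR2 by 0.32 to 0.61. The opposite was seen for LGALS3, at 1.86 CPM in untreated clone 3 and between 3.85 and 6.66 CPM in the other untreated cultures (log2 -1.56, SE 0.174, adjusted p = 0.000958).

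Clone 3 was the highest of the untreated origins for 26 of 33 members and the highest of the doxycycline origins for 25, and for 22 it was highest in both. Over all genes tested, clone 3 was highest untreated in 25.5% and highest with doxycycline in 25.0%. No such share was taken for both conditions together. For the members as a whole the highest origin was the same in both conditions in 24 of 33 cases, beside 56.1% of all genes.

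Clone 5 stood at the other end, lowest untreated for 19 of 33 members, beside 25.6% of all genes tested. LGALS1, which binds matrix glycans, showed its widest gap there, at 96.2 CPM in untreated clone 5 against 343 in the polyclonal population, 738 in clone 3 and 746 in clone 6 (clone 5 against the others: log2 -2.58, SE 0.124, adjusted p = 3.62e-05). CD44 (-2.29), S100A6 (-2.15), NT5E (-2.10) and THBS1 (-2.08) were also over 2 log2 units lower in clone 5. ZYX was the 1 member higher in clone 5 (0.34, adjusted p = 0.0157). In clone 6, LGALS1 was higher (1.51, SE 0.097, adjusted p = 0.000358) and TAGLN lower (-1.62, SE 0.0874, adjusted p = 0.000266). S100A6 was detected chiefly in the polyclonal population and clone 6, at 0.582 and 0.603 CPM untreated, against 0.189 and 0.109 CPM in clones 3 and 5.

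Markers of fibroblasts and of Ewing sarcoma cells were set beside the spread of origins. All 6 fibroblast markers were tested and none was at 0. Their summed level was 2798 CPM in untreated clone 3 against 498 to 1022 CPM in the other untreated cultures, and 2670.2 against 590 to 1124 CPM with doxycycline. COL1A1 and COL3A1 made up most of that sum and were higher in clone 3 (log2 2.06 and 1.91), whereas the proteoglycans DCN and LUM were lower there (-2.07 and -1.91). PDGFRB was also higher in clone 3 (0.42), and PDGFRA did not pass (-0.62). With doxycycline PDGFRB fell (log2 fold change -0.39, adjusted p = 0.03), and the other 5 fibroblast markers did not pass. The summed Ewing sarcoma markers stood at 4033 CPM in untreated clone 3 and 3992 CPM with doxycycline, against 4627 to 5674 and 4639 to 5791 CPM elsewhere, which rests on CD99 (874 CPM in untreated clone 3, 1484 to 2173 CPM elsewhere). Without CD99 the sum was 3159 CPM in untreated clone 3 against 3143 to 3501 CPM, and 3191 against 3055 to 3424 CPM with doxycycline. Most of that sum was CCND1 (2498 CPM in untreated clone 3). Set against the mean of the other origins, PRKCB (log2 -0.87), STEAP1 (-0.53), NKX2-2 (-0.51) and FEZF1 (-0.32) were also lower in clone 3. LIPI (-0.2), NR0B1 (0.15) and CCND1 (0.11) did not pass in that comparison. The part of these markers in the members' spread was not tested. In bulk libraries, fewer cells of a kind and less RNA per cell cannot be told apart.

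Genes of the TGF-beta pathway that are not members showed changes in both directions. Of 31 listed genes 29 were tested, 5 rose and 2 fell (24.1% called, beside 7.63% of all genes). Among ligands and their carriers, LTBP3, which stores latent TGF-beta, fell (54.1 ± 6.35 to 39.8 ± 8.19 CPM, log2 fold change -0.46, SE 0.0806, adjusted p = 0.0207), and 6 others did not pass. Among receptors, TGFBR1, the partner of TGFBR2, stood at 19.3 ± 8.98 and 19.4 ± 7.87 CPM (log2 fold change 0.037, adjusted p = 0.84). The decoy receptor BAMBI (0.53, adjusted p = 0.0192) and the coreceptor TGFBR3 (0.38, adjusted p = 0.0371) rose, and the activin receptor ACVR1B fell (-0.31, adjusted p = 0.0433). Among SMADs and corepressors 1 of 9 passed, the ubiquitin ligase SMURF1 (0.31, adjusted p = 0.0397). SMAD2 and TGIF1 had 22.2% and 11.8% of their reads matched, so their values do not describe the whole gene. Among 6 tested target genes, CCN1 (0.48, SE 0.0724, adjusted p = 0.0136) and CCN2 (0.45, SE 0.0881, adjusted p = 0.0265) rose, and none fell.

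Regulators known to act on the contractile members gave 2 calls. Of 9 tested SRF, MRTF and YAP regulators, the cofactors WWTR1 (TAZ; -0.32, adjusted p = 0.016) and MRTFB (-0.33, adjusted p = 0.0459) fell, while SRF, MRTFA, YAP1 and the 4 TEAD genes did not pass. Of 17 actin and focal adhesion genes, FLNC (0.37, adjusted p = 0.0207) and TPM3 (0.25, adjusted p = 0.032) rose and SMTN (-0.32, adjusted p = 0.0397) fell. Of 6 tested mesenchymal transcription factors, TWIST1 rose (0.32, adjusted p = 0.0372) and ZEB2 fell (-0.33, adjusted p = 0.0196). Of 10 tested genes listed for EWSR1-FLI1 and its partners in repression, NR0B1 (0.67, SE 0.0814, adjusted p = 0.00745) and NKX2-2 (0.30, SE 0.0684, adjusted p = 0.0414) rose. EWSR1 itself, BCL11B and the corepressors KDM1A, CHD4, HDAC1, HDAC2, TLE1 and TLE3 did not pass. For HDAC2 17.3% and for EWSR1 53.3% of the reads were matched, so their values do not describe the whole gene. Over all these pathway lists 71 of 77 genes were tested, and 10 rose and 6 fell (22.5% called, beside 7.63% of all genes). The medians of the 8 lists lay between -0.12 and 0.12, and without the block 0 passed by edgeR and 2 by DESeq2.

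For 15 members at least 2 transcripts each held 10% or more of the gene's estimated reads. In 1 of them, TGFBR2, the share of the leading transcript did not overlap between untreated and doxycycline libraries, beside 2.84% of 7689 genes with such transcripts. The TGFBR2 transcript of 4530 bases held 79.0%, 80.6%, 81.8% and 80.1% of the matched reads untreated (polyclonal, clone 3, clone 5, clone 6) and 75.3%, 74.8%, 70.8% and 75.8% with doxycycline. The longer transcript of 4704 bases took the rest, 19.6% ± 1.16 untreated and 25.8% ± 2.28 with doxycycline. This pair was picked out after its values were seen, the shares are model estimates with no test, and 58.3% of the reads of TGFBR2 were matched.

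FN1 transcripts differed by origin and less by treatment. The transcript of 8467 bases held 34.2%, 66.2%, 24.7% and 58.2% of the FN1 reads untreated and 23.1%, 63.2%, 22.5% and 50.3% with doxycycline, so it was higher in clones 3 and 6 than in the other origins under both conditions. The transcript of 8742 bases held 30.1%, 1.05%, 40.3% and 6.59% untreated, with its smallest share in clone 3. Its share was higher with doxycycline in 4 of 4 pairs (38.7%, 1.49%, 44.5% and 9.64%), and that of the 8467-base transcript lower in 4 of 4. FN1 transcripts are spliced in several forms, and the deposited values do not name the exons that part them. TPM1 also differed by origin: its transcript of 1681 bases held 81.6% in untreated clone 3 and between 49.2% and 59.6% in the other untreated cultures. For the scarce members AXL, THBS1 and CNN1 shares went from 0 to 100% between libraries, and for SPRY1 from 0 to 76.9%, and these shares are not read further.

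**Figure D4:**
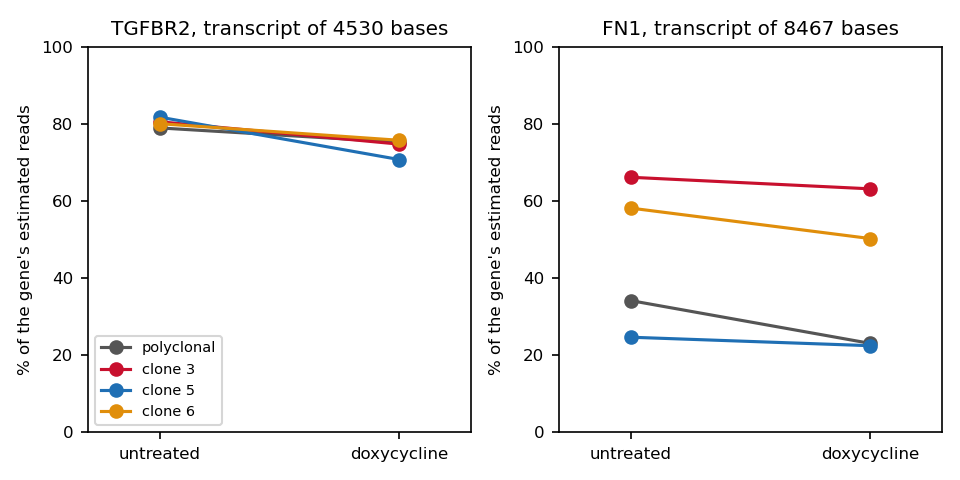
Share of the leading transcript in the matched estimated reads of TGFBR2 (4530 bases) and FN1 (8467 bases), untreated and with doxycycline, 1 line per origin. The TGFBR2 share was between 79.0% and 81.8% untreated and between 70.8% and 75.8% with doxycycline; that of FN1 differed mainly between origins.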

How the data were processed

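RNA of 8 libraries (4 untreated, 4 with doxycycline) was sequenced from a stranded mRNA preparation. The authors quantified GRCh38 RefSeq transcripts with Salmon and deposited estimated counts and TPM for each of 158867 transcripts. Salmon's strand setting is not given in the sources used here. 1 deposited library (clone 5, untreated) listed transcripts in another order and format, and was joined by name. The authors' deposited DESeq2 table was used only for its mean signal of normalised counts over the libraries; its fold changes and p-values were not used. In total 0 columns of other per-sample values were left aside.

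Transcripts were matched to symbols with RefSeq (GRCh38.p14), which placed 115325 (72.6%) transcripts and 89.9% to 91.1% of reads, and the estimated counts were summed over 34792 genes and rounded. A member's matched share is its mean normalised count over the authors' mean. Among the members, under 80% were matched for TGFBR2, FSTL1, TNC, PLAU, EMP1 and ANXA2, and for VIM. Sums were filtered with filterByExpr, scaled by TMM, and the quasi-likelihood test of edgeR 4.0.16 (R 4.3.3) was run with Benjamini-Hochberg adjustment over 15993 genes at 0.05. Origin was a block, since both cultures of an origin are the same cells; deviations of the partners from their group means correlated at 0.406 (polyclonal), 0.546 (clone 3), 0.59 (clone 5) and 0.582 (clone 6), and those of other pairs at -0.395 to 0.179. The study's methods name no pairing. Pair ratios used a pseudocount of 0.5 CPM. DESeq2 1.42.0, no block, DESeq2 size factors, filters of 1 count in any or 10 in every library, an effective length offset, curated transcripts only and leaving out each origin were alternatives. The fits were tested on simulated data. Depth limits rare members, and floors cover counting error only. Standard errors come from the quasi-likelihood fit and also cover spread beyond counting.

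All 36 members are named; values of every library are given for those called, for TGFBR2, IGFBP3, FOXO1, LOX and DKK1, and for the 5 with the widest untreated ratio. Other genes are FEZF1, EWSR1, FLI1, the markers and up to 5 called genes per pathway list. Members and lists were chosen with earlier results of these data known, so p-values here are no independent evidence. With origin as a block, they are set against the spread left after origin and treatment, in these cultures only. Without the block, the spread between origins is included as well.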

Additional observations from a re-analysis of the deposited data

Results flagged for a closer look

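In 18 of 66 groups of 4 libraries (27.3%), 1 library stood apart from the other 3 by Dixon's criterion, beside 5.94% of such groups over all genes tested; chance alone gives about 1 in 20. In 17 of the 18 it was clone 3, high, for 11 members. In untreated and doxycycline groups alike this held for CD44 (102 and 115 CPM), NT5E (129 and 92.7), THBS1 (13.1 and 13.0), LOX (25.3 and 21.0), FSTL1 (211 and 185) and IER3 (48.8 and 51.5). In the untreated group it held for AXL (18.8 CPM), PLAU (14.4), S100A10 (19.5) and TAGLN (124), and in the doxycycline group for TPM1 (109.7). The other 3 origins lay, for example, between 6.53 and 19.7 CPM for CD44 and between 9.69 and 27.3 CPM for NT5E untreated. The remaining case was ANXA1, low in the polyclonal population with doxycycline at 347 CPM, where the clones lay between 516 and 528 CPM.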

How the results depend on the processing

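The 7 calls among the members were met in full with DESeq2 size factors, both count filters, the effective length offset and DESeq2 with the block. The fit with no replicate block gave 0 member calls by edgeR and 0 by DESeq2, where the paired fit gave 7, and it gave 1 and 232 calls over all genes against 1221 and 0 and 2 in the pathway lists against 16. DESeq2 with the block called 1920 genes. Curated transcripts alone left 3 members, 493 genes and 7 pathway genes; members at least 80% matched left 6. Leaving out each origin left 1 to 4 members, 175 to 699 genes and 1 to 7 pathway genes. The member median stayed between -0.037 and 0.018, and 14 to 16 members had 1 direction in 4 of 4 pairs, or 15 to 20 in 3 of 3 where an origin was left out. Over 387 member fold changes under the alternatives, 319 kept direction and side of the threshold, 39 lost a call, 0 gained one and 29 turned sign, over 11 members and none of the 7 called.

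Signs turned without the block, by edgeR and DESeq2, for THBS1 (-0.010 and -0.034), S100A6 (0.0022 and 0.0061), ZYX (-0.015 and -0.029) and CAPG (-0.034 and -0.049), and for ZYX with DESeq2 and the block (-0.0048), size factors (-0.0047) and 10 counts in every library (-0.00042). Curated transcripts turned THBS1 (-0.52) and PLAUR (0.17). Leaving out origins gave -0.021 to 0.56 for IGFBP3, -0.073 to 0.015 for IER3, -0.16 to 0.18 for THBS1, -0.63 to 0.014 for TNC, -0.027 to 0.0089 for CD59, 0.0066 to 0.031 for S100A6, -0.084 to 0.11 for LGALS1, -0.065 to 0.70 for CNN1, -0.038 to 0.065 for ZYX and -0.035 to 0.17 for CAPG.

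Between origins, 22 to 27 members passed under the settings on all libraries and 17 to 23 when an origin was left out (17 without clone 3). Over all genes, 6300 passed, 2843 without the treatment term, 4054 with curated transcripts and 2970 to 5300 when an origin was left out. For single origins, leaving out another gave 20 to 22 members higher and 1 to 2 lower in clone 3, 0 to 2 higher and 12 to 20 lower in clone 5, 2 to 10 higher and 2 to 14 lower in clone 6, and 1 to 2 higher and 0 to 14 lower in the polyclonal population. Without the treatment term clone 5 had 11 lower, clone 6 had 5 lower and the polyclonal population 0 higher and 0 lower; curated transcripts also gave the polyclonal population 0 and 0, and the length offset 1 higher. No share over all genes was taken for these single-origin counts, and the cause of these shifts was not tested. IGFBP3, S100A6 and CNN1 were limited by depth.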
